A study of Mus musculus with 30 samples.

Results

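Interleukin-6 and its relatives form a family of cytokines that share the receptor subunit gp130, and 10 genes of this system were followed in mouse back skin inflamed with the phorbol ester TPA. They were the ligands Il6, Lif, Osm and Il11, the receptor chains Osmr, Il6ra and Il6st, the transcription factor Stat3 and the feedback inhibitors Socs1 and Socs3. Their probe sets were taken by gene symbol, and they make up 10 of the 22121 genes named on the array. They are carried by 23 probe sets, all of which passed the filter on dim probe sets. For a gene with several probe sets, the brightest over all arrays is quoted, and the others are given where they differ.

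The mice were WT or lacked D6, an atypical receptor that binds and removes inflammatory CC chemokines, and all were females of a mixed 129–C57BL/6 strain, 8 to 12 weeks old. The shaved back received 3 doses of 50 μM TPA in acetone, each 24 h after the last, and whole skin was taken at day 1, 2, 4 or 6 after the third dose. The day 0 skins of each genotype were controls, which the series describes as given acetone alone and the sample titles call untreated, and they serve every later day. There were 10 such groups, each with 3 biological replicates on separate arrays, 30 in all. Levels are log2 intensities computed by robust multiarray analysis (RMA), so a difference of 1 is a doubling, and a change is said to pass, rise or fall at an adjusted p under 0.05 from limma with Benjamini-Hochberg adjustment over 36029 tested probe sets. In whole skin, a change in the number of cells of a type cannot be told apart from a change in RNA per cell.

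IL-6 first binds a chain of its own, the product of Il6ra, which brings in gp130, the product of Il6st. Oncostatin M signals through gp130 together with the product of Osmr. JAK kinases bound to gp130 then phosphorylate STAT3, which enters the nucleus and switches on acute phase and repair genes. Socs3 is itself a STAT3 target, and its protein binds gp130 and shuts the signal down, while Socs1 acts mainly on interferon and related signals. In skin, oncostatin M is known as a product of infiltrating leukocytes that acts on keratinocytes, whereas IL-6 can come from keratinocytes, fibroblasts and leukocytes.

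Il6, Osm, Osmr, Socs1, Socs3 and Stat3 rose after TPA, whereas Lif, which has matches to the same motifs as Il6, did not. The sequences upstream of 4 members, Il6, Lif, Socs1 and Socs3, are shown. Each is the 250 bases before the RefSeq transcription start (GRCm38.p6), 5′ to 3′ on the gene's strand, with motif matches in capitals.
Il6 (chr5:30012864-30013113, plus strand): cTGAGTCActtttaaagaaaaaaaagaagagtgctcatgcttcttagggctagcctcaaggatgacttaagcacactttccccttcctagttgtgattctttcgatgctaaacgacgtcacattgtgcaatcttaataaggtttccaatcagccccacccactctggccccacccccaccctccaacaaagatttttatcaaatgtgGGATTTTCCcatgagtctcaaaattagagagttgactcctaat
Lif (chr11:4257318-4257567, plus strand): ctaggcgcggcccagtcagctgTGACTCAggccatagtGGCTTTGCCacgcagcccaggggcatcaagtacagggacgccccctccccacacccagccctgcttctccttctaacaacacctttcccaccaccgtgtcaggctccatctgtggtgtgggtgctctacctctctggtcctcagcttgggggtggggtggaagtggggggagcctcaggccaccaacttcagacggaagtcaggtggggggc
Socs1 (chr16:10785537-10785786, minus strand): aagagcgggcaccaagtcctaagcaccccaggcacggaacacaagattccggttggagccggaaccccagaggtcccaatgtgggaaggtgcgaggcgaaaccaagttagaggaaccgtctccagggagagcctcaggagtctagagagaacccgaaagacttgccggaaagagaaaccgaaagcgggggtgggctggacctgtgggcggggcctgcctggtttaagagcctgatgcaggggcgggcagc
Socs3 (chr11:117969367-117969616, minus strand): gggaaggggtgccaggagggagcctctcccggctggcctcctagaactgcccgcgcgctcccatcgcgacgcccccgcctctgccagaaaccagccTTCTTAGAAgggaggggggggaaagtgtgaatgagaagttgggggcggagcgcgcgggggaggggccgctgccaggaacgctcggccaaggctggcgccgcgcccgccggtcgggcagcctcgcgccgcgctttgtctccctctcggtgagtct

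Windows reaching from 250 bases before to 50 bases after the start were searched on both strands for 3 motifs, none of whose matches overlapped one another in the members. All members but Osm had a RefSeq window, 10 windows for 9 genes since Il11 has 2. The windows of 1 chromosome were left out, and 32851 were searched. The STAT motif TTCNNNGAA was found in 8.3% of them. Among the members it had a match in Socs3, TTCTTAGAA at position -154, counting back from -1 at the base before the start. The AP-1 motif TGANTCA, the kind of site through which phorbol esters act on many genes, was found in 7.81% of windows and in 4 members, at position -249 in Il6, -228 in Lif, -98 in 1 window of Il11 and 4 bases into the transcript in Osmr. The NF-kappaB motif GGNNTTNCC (GGNAANNCC on the other strand), found in 16% of windows, matched GGATTTTCC at position -43 in Il6 and GGCTTTGCC at position -212 in Lif. A match is a string of letters and not a measured binding site. Osm and Lif are next to each other among the protein-coding genes of that assembly.

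The arrays were of like brightness, with medians of 5.64 to 5.80 and a lowest correlation of 0.97 between arrays of a group. The D6 gene itself, Ccbp2 on the array, was lower in D6-deficient skins by 2 of its 3 probe sets. For 1422112_at, WT arrays ran from 4.15 to 5.76 and D6-deficient arrays from 3.30 to 3.86, while 1437937_at differed by -0.07 (adjusted p = 0.80). Spike-in hybridization controls fell into a lower set of 13 arrays and a higher set of 17, each with both genotypes. Every D6-deficient array of day 6 was in the higher set, whereas the D6-deficient arrays of day 0 were split between the sets. The summed intensity of 4 keratinocyte markers was at least 11718 on every array.

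Of the members, Il6st and Stat3 were the brightest, with 97.5% and 95.2% of probe sets dimmer, followed by Osmr at 92.0% and Socs3 at 89.5%. The ligands lay near the middle of the array or below it, from Osm at 61.5% to Lif at 41.1%. Probe sets differ in affinity, so these ranks describe brightness on the array and do not order the genes by transcript number. The plot of every array by day shows the shared peak at day 4.

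**Figure D1:**
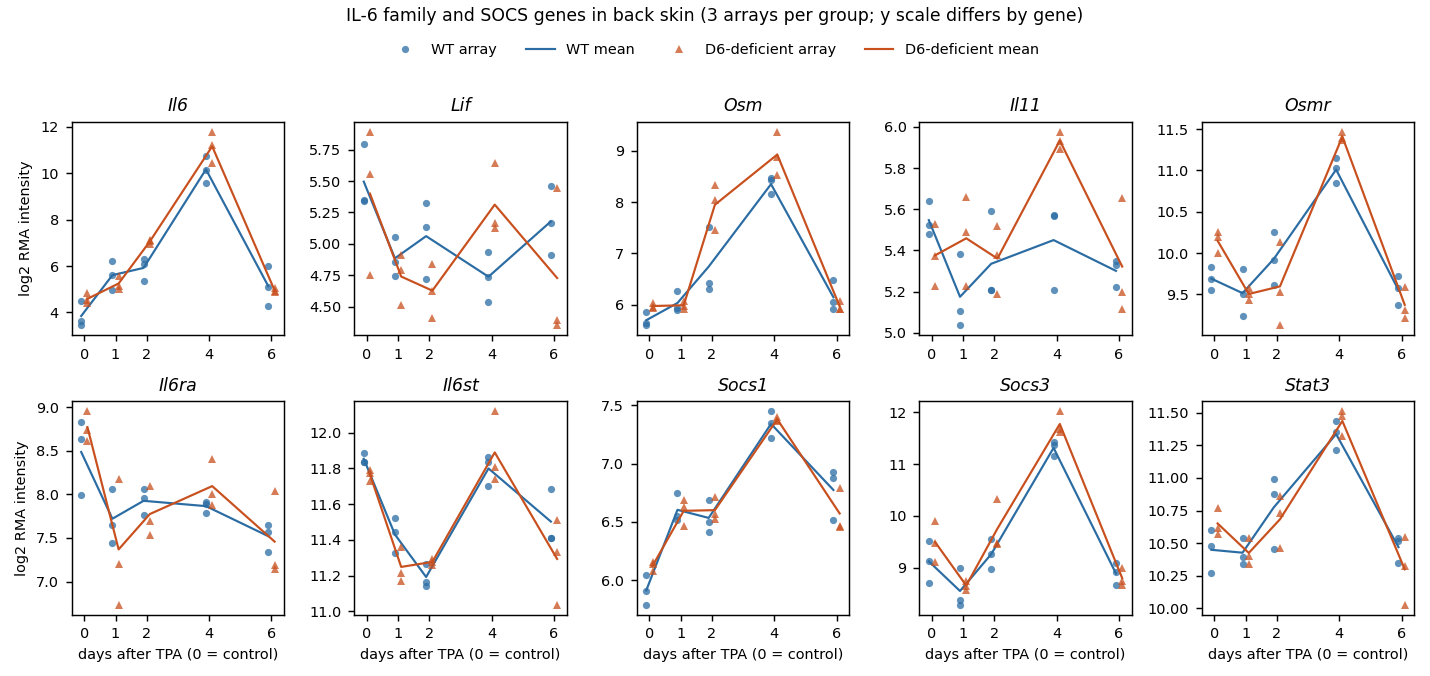
Log2 RMA intensity (y axis, own scale for each gene) of the quoted probe set of the 10 members against days after the third TPA dose (x axis), with a point for each array and a line through the mean of 3 arrays for WT and D6-deficient skins. Il6, Osm, Osmr, Socs1, Socs3 and Stat3 are highest at day 4 in both genotypes, with Il6 means of 10.17 and 11.16.

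At day 4, 6 of the 10 members had risen from day 0 in WT skins (Il6, Osm, Osmr, Socs1, Socs3 and Stat3) and 1 had fallen (Lif), against 17.3% of all tested probe sets that passed higher and 21.8% lower. In D6-deficient skins the same 6 and Il11 had risen and none had fallen, against 18.8% higher and 22.4% lower. More than 3-fold rises that passed were seen for 3 members in each genotype, Il6, Osm and Socs3, where the shares of all probe sets were 1.76% and 1.97%. The median change of the members was 1.10 in WT and 1.02 in D6-deficient skins, against 0.01 over all tested probe sets in each.

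Il6, the ligand that names the family, had the largest rise of the 10 members. In WT skins its log2 level was 4.47, 3.44 and 3.62 at day 0 and 10.15, 9.60 and 10.76 at day 4. In D6-deficient skins it was 4.84, 4.40 and 4.52 at day 0 and 11.80, 11.22 and 10.47 at day 4. Every array of day 4 lay far above every array of the other days. The log2 rise to day 4 was 6.32 in WT skins (95% interval 5.53 to 7.12, adjusted p = 2.7e-11), or 80.2-fold, and 6.58 in D6-deficient skins (5.78 to 7.38, adjusted p = 8.2e-12), or 95.5-fold. The WT controls averaged 3.85, close to the lowest mean kept by the filter (3.72) and below the array medians, and no detection calls were used here, so these are folds of the intensities and are lower bounds if the control signal is background.

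The rise of Il6 began before day 4. In WT skins Il6 was up by 1.76 at day 1 (adjusted p = 0.0017), with 6.23, 4.96 and 5.63, and by 2.07 at day 2, with 6.32, 6.09 and 5.35. In D6-deficient skins the day 1 difference of 0.66 did not pass (adjusted p = 0.19), and at day 2 the arrays read 7.13, 7.10 and 6.95, a rise of 2.47 from day 0 (adjusted p = 2e-05). By day 6 the level had dropped again, with changes from day 4 of -5.04 in WT and -6.21 in D6-deficient skins. WT skins at day 6 were still above their day 0 by 1.28 (adjusted p = 0.019), with arrays of 6.00, 5.11 and 4.28 that overlapped day 0, and this call was lost when any of 4 of the 6 arrays was left out (adjusted p of up to 0.138, without WT replicate 1 of day 6), whereas the difference in D6-deficient skins was 0.37 (adjusted p = 0.51).

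Osm, which encodes oncostatin M, rose less than Il6 and first passed at day 2 in both genotypes. Its WT arrays read 5.64, 5.84 and 5.59 before TPA, 6.26, 5.94 and 5.90 after 1 day, 6.29, 7.51 and 6.41 after 2 days, and 8.48, 8.15 and 8.43 after 4 days. Its D6-deficient arrays on the same days read 5.95, 6.03 and 5.93, then 5.98, 5.91 and 6.07, then 8.05, 8.34 and 7.46, and then 9.38, 8.88 and 8.53. At day 2 the WT values split, with replicate 2 inside the D6-deficient range and the others close to day 1. The rise from day 0 passed at day 2 (1.05 in WT, adjusted p = 0.0026, and 1.98 in D6-deficient skins, adjusted p = 9.6e-07) and at day 4 (2.66 and 2.96, or 6.31-fold and 7.77-fold), and neither day 1 nor day 6 passed in either genotype. Day 6 means were 6.14 ± 0.30 in WT and 5.96 ± 0.09 in D6-deficient skins (SD, n = 3).

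The other ligands did not share this course. Lif, leukaemia inhibitory factor, stayed between 4.35 and 5.89 on all 30 arrays, and where it passed it fell, by 0.76 at day 4 in WT skins (adjusted p = 0.025) and by 0.77 at day 2 in D6-deficient skins (adjusted p = 0.023). These calls were lost when any of 3, and any of 4, of the 6 arrays compared was left out (adjusted p of up to 0.115 and 0.159). Its second probe set, 1450160_at, is dimmer and passed on no day. Il11, interleukin-11, lay between 5.04 and 5.98, and its day 4 arrays of D6-deficient skin (5.98, 5.93 and 5.89) stood 0.56 above day 0 (adjusted p = 0.0034). The WT arrays at day 4 (5.57, 5.21 and 5.57) differed from day 0 by -0.10 (adjusted p = 0.63). The difference between genotypes in that change was 0.65 and did not pass (adjusted p = 0.16).

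Of the receptor chains, Osmr rose at day 4 while Il6ra and the brightest Il6st probe set did not. Osmr, the specific chain of the oncostatin M receptor, read 9.83, 9.56 and 9.68 at WT day 0 and 11.15, 10.85 and 11.03 at day 4. In D6-deficient skins it read 10.19, 10.005 and 10.25 at day 0 and 11.47, 11.39 and 11.37 at day 4. No array of day 4 overlapped day 0, and the rise was 1.32 in WT (2.50-fold, adjusted p = 6.2e-06) and 1.26 in D6-deficient skins (2.40-fold, adjusted p = 8.7e-06). The other 2 Osmr probe sets also rose at day 4, 1418675_at by 1.78 and 1.85 and the dim 1459217_at by 0.51 and 0.78. In D6-deficient skins the brightest probe set was below day 0 on the other days, by -0.64 at day 1, -0.55 at day 2 and -0.78 at day 6, all passing, and neither of the other probe sets passed on those days. The day 2 call was lost when any of 4 of the 6 arrays was left out, down to -0.32 (adjusted p = 0.215) without D6-deficient replicate 2 of day 2.

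Il6ra, the IL-6 binding chain, fell. In WT skins the fall passed at day 1 (-0.77, adjusted p = 0.047) and day 6 (-0.97, adjusted p = 0.014), and in D6-deficient skins at day 1 (-1.40, adjusted p = 0.00037), day 2 (-0.997, adjusted p = 0.0060) and day 6 (-1.31, adjusted p = 0.00090). The WT calls were lost when any of 4 of the 6 arrays was left out at day 1 (adjusted p of up to 0.186) and any of 3 at day 6 (adjusted p of up to 0.076). At day 4, the peak of Il6, its values of -0.62 and -0.68 did not pass (adjusted p = 0.080 and 0.054). The D6-deficient day 1 arrays were spread widely, at 6.73, 7.20 and 8.17, all under the day 0 arrays of 8.62, 8.74 and 8.96. The other Il6ra probe set, 1422270_a_at, passed on no day, with differences from -0.16 to 0.41, so the fall rests on a single probe set.

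Il6st, which encodes gp130, fell before day 4 and was back at its control level at day 4 by its brightest probe set, but its 4 probe sets differed. The brightest read 11.89, 11.84 and 11.84 in WT controls, 11.27, 11.17 and 11.14 after 2 days, and 11.84, 11.86 and 11.70 after 4 days. The D6-deficient arrays read 11.79, 11.73 and 11.77, then 11.27, 11.29 and 11.26, then 12.12, 11.74 and 11.81 on the same days. The fall passed at days 1, 2 and 6 in both genotypes (-0.42, -0.66 and -0.35 in WT, -0.52, -0.49 and -0.47 in D6-deficient skins), with the WT call at day 6 lost when any of 3 of the 6 arrays was left out (adjusted p of up to 0.115). At day 4 the differences from day 0 were -0.05 and 0.12, and neither passed. Of the other 3 probe sets, 1437303_at was also below day 0 at days 1 and 2 in both genotypes, from -0.61 to -0.77, all passing. In D6-deficient skins 1421239_at was instead above day 0, by 0.75 at day 1 and 0.69 at day 2, both passing, and 1460295_s_at was above it by 0.42 at day 2 (adjusted p = 0.036) while it was below by -0.43 in WT skins (adjusted p = 0.042). With the mean of all Il6st probe sets, the D6-deficient falls were lost (-0.02 at day 1 and -0.01 at day 2, adjusted p = 0.92 and 0.97), as were those of WT at day 1 (-0.22, adjusted p = 0.25) and of both genotypes at day 6. At day 4, 1421239_at was above day 0 by 0.73 and 1.02 and 1460295_s_at by 0.42 and 0.67, all passing, and 1437303_at by 0.18 in WT (adjusted p = 0.45) and 0.65 in D6-deficient skins (adjusted p = 0.0058). The direction of Il6st before day 4, and whether it exceeded its control level at day 4, therefore depended on the probe set.

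Stat3 rose modestly from a high level. Its brightest probe set read 10.48, 10.60 and 10.27 at WT day 0 and 11.44, 11.22 and 11.35 at day 4, and 10.57, 10.61 and 10.77 against 11.51, 11.48 and 11.32 in D6-deficient skins. The rise was 0.89 (1.85-fold, adjusted p = 1.8e-05) and 0.79 (1.72-fold, adjusted p = 6.2e-05), and no other day passed in either genotype. Of its other probe sets, 1460700_at rose by 0.69 and 0.72 and the dim 1424272_at by 0.34 and 0.30 at day 4, while 1459961_a_at did not pass there (0.29 and 0.34) and was below day 0 at days 1 and 6 in both genotypes, by as much as -1.09, and at day 2 in D6-deficient skins. Stat3 1460700_at also passed lower at day 1 in D6-deficient skins, at -0.36 (adjusted p = 0.042).

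Socs3, the STAT3-induced inhibitor of gp130, joined the peak at day 4 and passed above its control level on no other day. In WT skins it read 9.52, 9.13 and 8.71 at day 0 and 11.43, 11.15 and 11.36 at day 4. In D6-deficient skins it read 9.90, 9.48 and 9.11 at day 0 and 12.03, 11.68 and 11.62 at day 4. The groups stood well apart, by 2.19 in WT (4.57-fold, adjusted p = 1.2e-07) and 2.28 in D6-deficient skins (4.86-fold, adjusted p = 4.4e-08), and the other 2 probe sets gave 2.11 to 2.21. At day 1 Socs3 was below day 0 in D6-deficient skins, at -0.84 (adjusted p = 0.0070, and 0.057 without D6-deficient replicate 1 of day 0). Its WT difference of -0.57 did not pass (adjusted p = 0.081), though it did without WT replicate 3 of day 0 or replicate 1 of day 1 (-0.78 and -0.80, adjusted p = 0.031 and 0.029). At day 6 it was below day 0 in D6-deficient skins, at -0.70 (adjusted p = 0.026), a call lost when any of 4 of the 6 arrays was left out (adjusted p of up to 0.153). At day 2, when Il6 was already up, Socs3 differed from day 0 by 0.14 and 0.26, neither passing.

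Socs1, the other feedback inhibitor, was the sole member to pass above day 0 at every time in both genotypes. In WT skins its rise was 0.69, 0.62, 1.43 and 0.86 at days 1, 2, 4 and 6, and in D6-deficient skins 0.47, 0.48, 1.26 and 0.45, each passing. Its control arrays read 5.79, 5.90 and 6.04 in WT and 6.15, 6.14 and 6.07 in D6-deficient skins, and its day 4 arrays 7.45, 7.35 and 7.22 and 7.37, 7.40 and 7.37. None of the later arrays overlapped its own controls. The second probe set, 1440047_at, passed at day 4 alone, at 0.48 and 0.39.

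**Figure D2:**
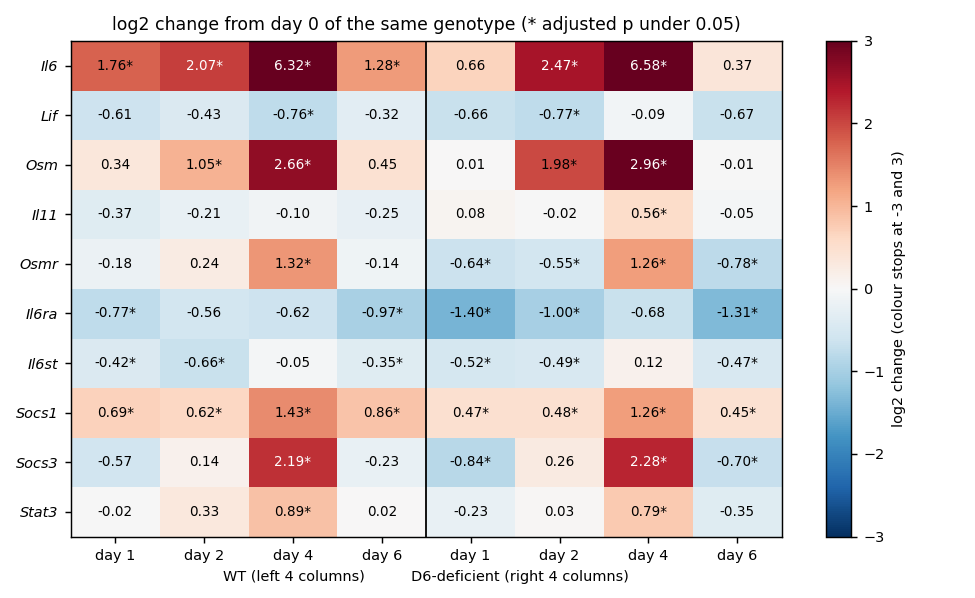
Log2 change from day 0 of the same genotype for the 10 members (rows) at days 1, 2, 4 and 6 in WT (left columns) and D6-deficient skins (right columns), with the value in each cell and a star where the adjusted p is under 0.05. Il6, Osm, Osmr, Socs1, Socs3 and Stat3 carry stars at day 4 in both genotypes, and Socs1 carries one in all 8 columns.

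Before and after the peak, fewer members stood above day 0. At day 1, WT skins had 2 members higher and 2 lower, beside 11.4% and 12.7% of all tested probe sets, and D6-deficient skins had 1 higher and 4 lower, beside 18.2% and 18.1%. At day 2 the WT members numbered 3 higher and 1 lower, beside 11% and 15%, and the D6-deficient members 3 higher and 4 lower, beside 17.5% and 20.6%. At day 6 there were 2 higher and 2 lower in WT (10.2% and 11.9%), against 1 higher and 4 lower in D6-deficient skins (16% and 15.7%). With 10 genes, a member is 10% of the count, so several of these shares are near those of the whole array.

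Between consecutive days, the step from day 2 to day 4 moved the most members up. From day 2 to day 4, 7 members rose in WT skins (7.16% of all probe sets) and 8 in D6-deficient skins (7.76%), and none fell (7.39% and 8.54%). Il6 rose by 4.25 and 4.10, Socs3 by 2.05 and 2.02, and Osmr by 1.08 and 1.81. From day 4 to day 6 the turn was as sharp, with 6 members falling in WT (10% of all probe sets) and 8 in D6-deficient skins (14.5%) and none rising (12.1% and 16.8% of all probe sets), with Socs3 at -2.43 and -2.98. The step up was lost for Stat3 in WT skins without WT replicate 3 of day 2 (adjusted p = 0.069), for Osm in D6-deficient skins without replicate 3 of day 2 or replicate 1 of day 4 (0.065 and 0.062) and for Il11 there without replicate 2 of day 2 (0.056). From day 1 to day 2, 3 members rose in D6-deficient skins (5.18% of all probe sets, with 5.24% falling), Il6 by 1.81, Osm by 1.96 and Socs3 by 1.10. No member passed in WT skins over that step (0.633% of all probe sets passed higher and 0.566% lower), where the values were 0.31, 0.71 and 0.71. That the step differed between genotypes was not tested.

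Markers of cell types in the skin changed over the same days. Of 6 neutrophil markers (Ngp, Ltf, Camp, Mmp8, Csf3r and Cxcr2), 5 rose in WT and 6 in D6-deficient skins at day 4, and their summed intensity, which at day 0 lay between 292 and 375 in WT and between 315 and 324 in D6-deficient skins, lay between 3153 and 6313 and between 6138 and 6888 at day 4. Of 6 macrophage markers, 4 rose and 2 fell in each genotype. Of all tested probe sets at day 4, 17.3% passed higher and 21.8% lower in WT skins, and 18.8% and 22.4% in D6-deficient skins. Of 4 keratinocyte markers, Krt1 and Krt10, keratins of the upper layers, fell in both genotypes, while Krt14 rose in WT skins by 1.10 and Krt5 fell in D6-deficient skins, at -1.15. Their summed intensity lay between 26657 and 28099 in WT and between 37373 and 40229 in D6-deficient skins at day 0, and lower at day 4, between 19259 and 24423 and between 11718 and 17117. The part of these shifts in the day 4 values of the members was not tested.

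Most of the listed genes that STAT3 is known to switch on rose at day 4, as Il6 and Osm did. Of 18 such genes tested, 15 rose and 1 fell at day 4 in each genotype. Of all tested probe sets 17.3% passed higher and 21.8% lower in WT skins, and 18.8% and 22.4% in D6-deficient skins. The median change of the 18 genes was 1.44 in WT and 1.52 in D6-deficient skins, against 0.01 over all tested probe sets. The largest rises in WT skins were those of the acute phase genes Saa1 (7.24) and Saa3 (6.45), of Lcn2, an iron-trapping antibacterial protein (6.24), and of Timp1, an inhibitor of matrix metalloproteinases (5.48). The values in D6-deficient skins were 6.18, 5.01, 5.04 and 5.49. The gene that fell was Bcl6, a transcriptional repressor, at -0.61 and -1.23, and the early response genes Fos and Myc did not pass. At day 2, 6 rose and 1 fell in WT skins, beside 11% and 15% of all probe sets. In D6-deficient skins 8 rose and 2 fell, beside 17.5% and 20.6%. Several of these genes are also made by neutrophils or answer to other signals, so the list does not isolate STAT3. The list was chosen with earlier results of these data known.

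**Figure D3:**
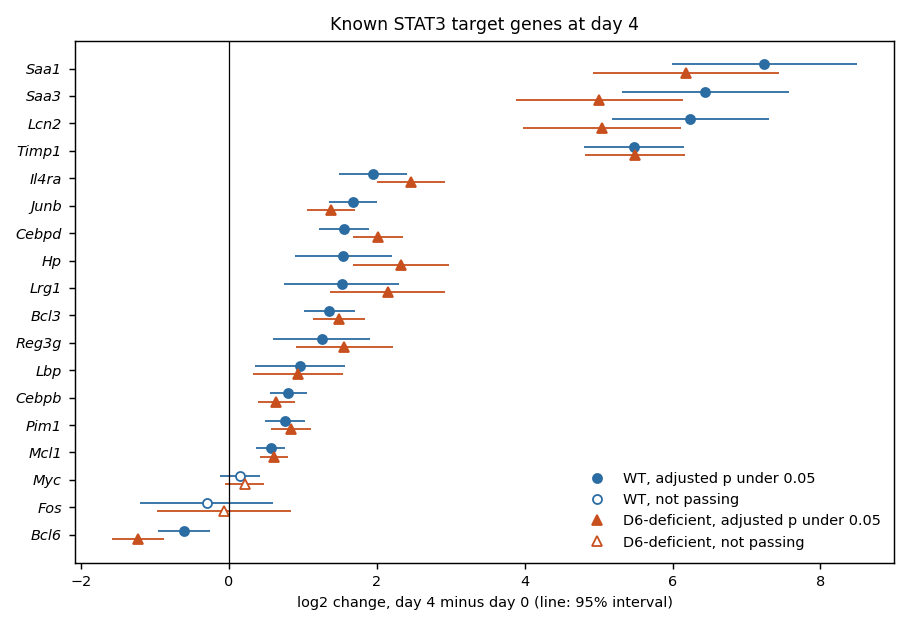
Log2 change from day 0 to day 4 (x axis, with 95% interval) of 18 known STAT3 target genes (y axis) in WT (circles) and D6-deficient skins (triangles), filled where the adjusted p is under 0.05. In each genotype 15 genes lie to the right of 0 with filled symbols, from Mcl1 at 0.56 and 0.61 to Saa1 at 7.24 and 6.18.

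Of 16 other genes of the JAK-STAT machinery, 5 rose and 4 fell in WT skins at day 4, beside 17.3% and 21.8% of all probe sets, and 6 rose and 4 fell in D6-deficient skins, beside 18.8% and 22.4%, so the falls were near the share of the whole array. Socs5, another SOCS family member, rose by 1.18 and 1.30, and Jak2, a kinase that can serve gp130, by 0.90 and 0.96. Cish, a SOCS relative induced by STAT5, rose by 1.03 and 0.61, and Socs7 fell, at -0.89 and -1.06. Socs2 and Socs6 did not pass in either genotype.

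Among 10 tested genes for other ligands and receptors of the family, 3 rose and 2 fell in WT skins at day 4, beside 17.3% and 21.8% of all probe sets, and 3 rose and 4 fell in D6-deficient skins, beside 18.8% and 22.4%. Ctf1, the ligand cardiotrophin-1, fell, at -1.08 and -1.53, and Lifr, the chain shared by LIF and several relatives, fell too, at -0.96 and -0.77. Il11ra1, the IL-11 receptor chain, rose by 0.78 and 0.69. Il31ra, which pairs with Osmr to bind IL-31, was at -1.16 in D6-deficient skins (adjusted p = 0.0074), and its WT value was -0.81 (adjusted p = 0.060). Clcf1, cardiotrophin-like cytokine, rose by 0.66 and 0.28, and Il27ra, the IL-27 receptor chain, by 0.41 and 0.71.

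Between genotypes on the same day, 1 of 50 member comparisons passed, that of Osm at day 2, when 2.46% of all tested probe sets passed higher and 1.99% lower in D6-deficient skins. Before TPA the shares were 0.713% higher and 0.855% lower, after 1 day 0.0194% and 0.0361%, after 4 days 0.289% and 0.225%, and after 6 days 0.025% and 0.0999%, so few probe sets of any kind passed between genotypes then. The D6-deficient arrays (8.05, 8.34 and 7.46) averaged 7.95 ± 0.45 and the WT arrays (6.29, 7.51 and 6.41) 6.74 ± 0.67 (SD, n = 3). The groups overlapped, since WT replicate 2 lay just above D6-deficient replicate 3. The difference was 1.21 (95% interval 0.70 to 1.72, adjusted p = 0.0033), or 2.31-fold, and ran from 0.99 to 1.59, always passing, when each array of the pair of groups was left out in turn. It did not pass with the spread estimated from these 6 arrays alone (adjusted p = 0.086) or by the methods' t-test (unadjusted p = 0.061). Within the lower and higher sets of hybridization controls it was 1.90 and 0.49, with 1 or 2 arrays a side and no test.

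Neutrophil markers also differed between genotypes at day 2. In D6-deficient skins all 6 passed above their WT levels then, with a median difference of 3.21, led by Ngp (4.82), Ltf (3.82), Camp (3.28) and Mmp8 (3.13). Their summed intensity was 677, 1197 and 589 on WT replicates 1 to 3 and 2623, 5851 and 8891 on D6-deficient replicates 1 to 3. WT replicate 2 was highest in its group for both Osm and the markers, whereas D6-deficient replicate 3 had the most marker signal and the least Osm. D6-deficient replicate 2 of day 1 had a sum of 2022 with Osm at 5.91, no higher than at day 0. Of 6 macrophage markers, 2 passed higher in D6-deficient skins at day 2 and 4 did not pass, beside 2.46% of all probe sets passing higher. Their summed intensity lay between 15541 and 18455 in WT and between 19706 and 21349 in D6-deficient skins. The part of neutrophil or macrophage number in the Osm difference was not tested.

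**Figure D4:**
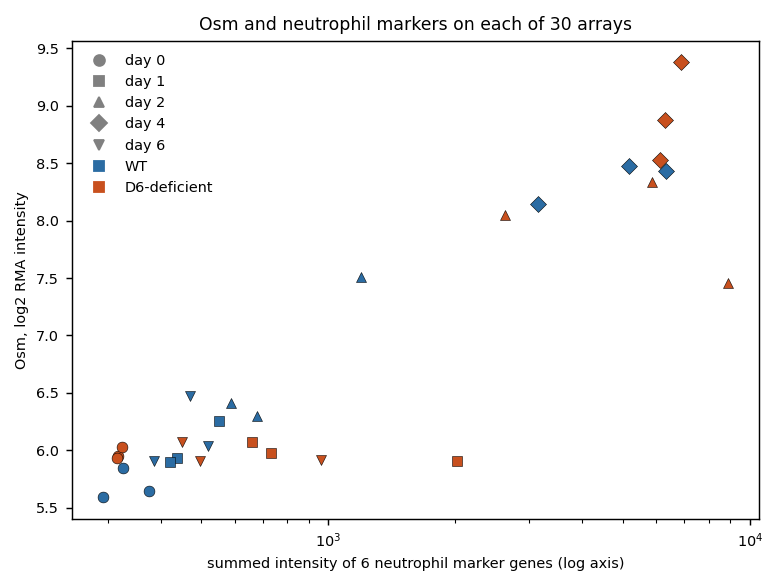
Osm log2 RMA intensity (y axis) against the summed linear intensity of 6 neutrophil marker genes (x axis, log scale) on each of 30 arrays, coloured by genotype and shaped by day. The day 4 arrays and the D6-deficient day 2 arrays lie at sums of 2623 and more with Osm at 7.46 or above, while D6-deficient replicate 2 of day 1 has a sum of 2022 with Osm at 5.91. WT replicate 2 of day 2 has a sum of 1197 with Osm at 7.51.

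Il6 did not pass between genotypes on any day. At day 2 the D6-deficient arrays all lay above the WT arrays, by 1.14 on average (95% interval 0.34 to 1.94, adjusted p = 0.10), which passed when the spread came from these 6 arrays alone (adjusted p = 0.026). At day 4 the difference was 0.99 (0.20 to 1.79, adjusted p = 0.33) with overlapping arrays. At day 4 all 10 members had higher means in D6-deficient skins, with a median of 0.43 against -0.01 over all probe sets, 5 of them at an unadjusted p under 0.05 (Il6, Lif, Osm, Il11 and Osmr), and none passed. At day 0, 7 of the 10 already had higher means in D6-deficient skins, with a median of 0.24, and relative to day 0 the day 4 difference was above 0 for 6 of 10, with a median of 0.13. Socs1 and Stat3 were among the closest between genotypes at that time, at 0.04 (-0.20 to 0.28) and 0.10 (-0.18 to 0.39).

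**Figure D5:**
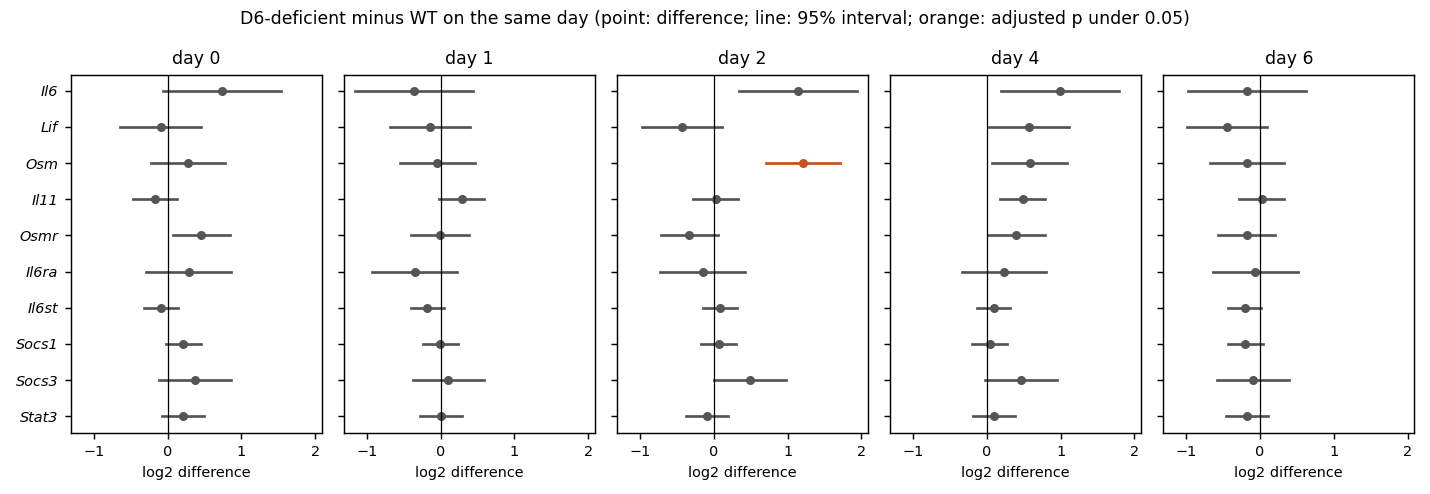
Difference in log2 RMA intensity between D6-deficient and WT skins (x axis, point with 95% interval) for the 10 members (y axis) at days 0, 1, 2, 4 and 6, orange where the adjusted p is under 0.05. Osm at day 2, at 1.21, is the only orange point, and at day 4 all 10 points lie above 0.

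When the change from day 0 was compared between genotypes, none of 40 member comparisons passed, 6 had an unadjusted p under 0.05, and the methods' t-test with adjustment gave 0 as well. At day 2, 2.78% of all probe sets passed higher and 2.62% lower. The shares were 0.00278% and 0.0167% after 1 day, 0.192% and 0.416% after 4 days, and 0.0139% and 0.0111% after 6 days. The difference in the rise of Il6 was 0.40 at day 2 (-0.73 to 1.53) and 0.25 at day 4 (-0.88 to 1.38), and that of Socs3 at day 4 was 0.09 (-0.60 to 0.78). That of Osm at day 2 was 0.93 (0.22 to 1.65, adjusted p = 0.13), and without WT replicate 2 of day 2 it was 1.32 and passed (adjusted p = 0.0079). That of Osmr at day 2 ran the other way, -0.79 (adjusted p = 0.089), and passed without D6-deficient replicate 1 of day 2 (-1.06, adjusted p = 0.0080) or WT replicate 3 of day 2 (-0.95, adjusted p = 0.045).

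Averaged over all 5 days, Osm was 0.37 higher in D6-deficient skins (adjusted p = 0.0486), the sole member to pass of 10, when 2.29% of all probe sets passed higher and 3.23% lower. The call stood at the threshold and was lost with no filter on dim probe sets and when any of 25 of the 30 arrays was left out (adjusted p of up to 0.0898). Osm means were lower in D6-deficient than in WT skins at day 1 (5.99 against 6.03) and day 6 (5.96 against 6.14). The day 2 difference of 1.21 is part of this average. Over the same average, 5 of 6 neutrophil markers passed higher in D6-deficient skins, with a median of 0.99, and all 4 skeletal muscle markers passed lower, with a median of -0.50, and their part in the Osm value was not tested. The corresponding values were 0.47 for Il6 (adjusted p = 0.13) and 0.27 for Socs3 (adjusted p = 0.15).

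Between genotypes, none of the 18 STAT3 targets passed at day 2 or day 4, with 5 and 2 at an unadjusted p under 0.05. At day 0, 1 passed higher in D6-deficient skins, beside 0.713% of all probe sets. Averaged over all 5 days, 3 passed higher in D6-deficient skins and none lower, beside 2.29% and 3.23% of all probe sets. Lcn2 at day 2 was 1.39 higher in D6-deficient skins (95% interval 0.32 to 2.46, adjusted p = 0.15) and Saa3 1.29 higher (0.16 to 2.42, adjusted p = 0.23). Stat3 itself differed by -0.09 at day 2 (-0.38 to 0.19).

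Across the 10 group means, Il6 and Osm had a Pearson correlation of 0.96, Socs3 and Stat3 of 0.97, and Il6 and Socs3 of 0.92, while Il6 and Lif had -0.17. These describe 10 means that share the day 4 peak, with no test. The other genes whose means followed Il6 most closely were Cytip (0.994), Cd244, Gcnt2, Tnc and Siglece (0.988). Those for Osm were Hdc (0.997), which makes histamine, Stx11, Trem1, a receptor of neutrophils and monocytes, Skap2 and E030010A14Rik (0.990). Those for Socs3 were Arid5a (0.990), an RNA-binding protein, Ecscr, Mvp, Pion and Cebpd (0.985), the last of which was also on the list of STAT3 targets.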

How the data were processed

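Back skin RNA of 30 mice was measured on Affymetrix Mouse Genome 430 2.0 arrays. The authors normalized the arrays by RMA in GeneSpring GX and deposited linear intensities, 1 value per probe set and array. A second deposited text holds a sample sheet and was not used. The log2 of the intensities was taken without further scaling. After 64 controls were left out, the 20% of 45037 probe sets with the lowest mean were dropped and 36029 tested. A mean for each of 10 groups was fitted to all arrays with limma 3.58.1 (lmFit and eBayes) in R 4.3.3, with Benjamini-Hochberg adjustment per contrast. Figures and motif searches used Python 3.11.15 and matplotlib 3.10.9. Alternatives were the filter, centring, the spread from the arrays compared, hybridization control set, replicate block, the mean of all probe sets of a gene, robust eBayes, the methods' t-test with its 3-fold threshold, and each array left out. The fit was tested on simulated data. The number of arrays limits precision. With 3 arrays against 3 a permutation p cannot go below 0.1, so single genes were tested in the fit across all probe sets.

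Named genes were the 10 members, up to 4 genes per list with the largest passing change, and 5 genes nearest to Il6, Osm and Socs3 by correlation of group means. The 10 genes and the lists (STAT3 targets, JAK-STAT genes, other family genes, cell type markers) were chosen with earlier results of these data known. Bcl6, Mcl1, Fos, Myc, Socs2, Socs6, Il31ra and Il27ra were named after their values were seen. A gene of the JAK-STAT list is not reported here. Of the listed symbols, 5 had no probe set under that name (Ctf2, Il27, Ly6g, Trdc and Plin1). Labels give the 3 arrays of a group as biological replicates.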

Additional observations from a re-analysis of the deposited data

Results flagged for a closer look

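The change from day 0 to day 2 differed between genotypes, by the interaction term of the limma fit, for 1 of 23 member probe sets. It is not the brightest of its gene, and 2.78% of all probe sets passed higher and 2.62% lower. Il6st 1460295_s_at fell in WT skins from 9.62, 9.49 and 9.61 to 9.37, 9.04 and 9.03 and rose in D6-deficient skins from 9.25, 8.81 and 9.37 to 9.71, 9.74 and 9.23, a difference of 0.84 (adjusted p = 0.022). The brightest Il6st probe set gave 0.17 (adjusted p = 0.66). The same term passed for neutrophil markers at day 2, where it was 4.63 for Ngp, 3.81 for Ltf, 3.20 for Camp, 3.24 for Mmp8 and 1.85 for Csf3r. It was 1.65 for Cd68 and 2.06 for Cd14 at day 2, the 2 of 6 macrophage markers that passed. It was 0.64 for Cd4, the only one of 5 T cell markers to pass, and those 5 had a median of 0.10 and ran down to -0.29. At day 4 it was -1.36 for Krt5 and -1.23 for Krt14, keratins of the basal epidermis.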

How the results depend on the processing

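No member result that passed in the main fit or in an alternative changed direction between the 2. Of 4320 gene results under all alternatives, 4044 kept their side of the threshold, 233 no longer passed and 43 newly passed. Direction was not followed for results that passed in neither. The counts of passing members after TPA were 19 of 40 in WT and 24 of 40 in D6-deficient skins. With the methods' t-test, at an unadjusted p under 0.05 and more than 3-fold, they became 5 and 5, with that t-test after Benjamini-Hochberg adjustment 10 and 15, and with limma and more than 3-fold 5 and 5. The 32 of 60 passing between consecutive days became 15, 12 and 15 under the same settings, the 1 of 50 between genotypes on the same day became 0, 0 and 0, and the 1 of 10 over all days became 0, 0 and 0, and 0 also with no filter on dim probe sets. Between genotypes relative to day 0 all of these gave 0. With the spread from the arrays of the contrast only, the 1 passing on the same day was Il6 at day 2 and not Osm. Leaving out 1 array at a time gave 15 to 20 in WT, 20 to 26 in D6-deficient skins, 1 to 1 on the same day, 0 to 1 relative to day 0, 31 to 35 between consecutive days and 0 to 2 over all days. Il6 passed over all days without WT replicate 1 of day 6 (0.55, adjusted p = 0.049). Without a single array, Stat3 newly passed above day 0 in WT at day 2. Other genes newly passed below day 0, Il11 in WT at day 1 and Il6ra at day 4 in each genotype. Also newly below day 0 in D6-deficient skins were Stat3 at day 6 and Lif at days 1 and 6. The replicate numbers did not pair the arrays: deviations of arrays with the same number had a median correlation of -0.01 over 135 pairs, and 12 of 30 arrays correlated best with their own number. With the replicate block the counts were 20, 26, 1, 0, 35 and 1 in the order WT, D6-deficient, same day, relative to day 0, consecutive days and all days. With the hybridization control set as a covariate, 5 of 240 gene results newly passed and 1 was lost. Among the 5 were Lif and Stat3, below day 0 at day 6 in D6-deficient skins (-0.74 and -0.39, adjusted p = 0.049 and 0.045).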

Other observations

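Marker genes of other cell types in the skin were followed as well. All 4 skeletal muscle markers (Ckm, Acta1, Myh4 and Mylpf) were below day 0 at days 2 and 4 in both genotypes, with a median of -1.19 in WT and -1.65 in D6-deficient skins at day 2. At days 1 and 6 all 4 were below day 0 as well in both genotypes, at an unadjusted p under 0.05 from limma. The 4 mast cell markers all rose at day 2 in D6-deficient skins, with a median of 0.60, and none passed in WT skins, where the median was 0.20. Whether this differed between genotypes was tested gene by gene, and none of the 4 passed. Of 5 T cell markers, 2 rose in WT and 3 in D6-deficient skins at day 2. Of 5 fibroblast markers, 1 rose and 2 fell at day 4 in each genotype. Of 4 endothelial markers, 1 fell in WT and 2 rose in D6-deficient skins at day 4, and of 3 adipocyte markers 2 fell in WT and none passed in D6-deficient skins. At day 2, 11% of all tested probe sets passed higher and 15% lower in WT skins, and 17.5% and 20.6% in D6-deficient skins. At day 4 the shares were 17.3% and 21.8%, and 18.8% and 22.4%. The 1 of 5 fibroblast markers that rose and the 1 of 4 endothelial markers that fell in WT skins are near these shares.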
